A study of Mus musculus with 9 samples.

Results

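Chromatin modifiers and remodellers are the proteins that write, erase and read marks on histones and DNA, slide or evict nucleosomes, and bend DNA. The 83 genes described here were taken by name from the union of the 3 deposited tables: autosomal genes whose symbol starts with Kdm, Kmt, Hdac, Setd, Smarc, Arid, Dnmt3, Tet, Ezh or Cbx, or with Chd, Brd or Phf and a digit, together with Crebbp, Suz12, Eed, Bmi1, Nsd1, Nsd2, Ehmt1, Ehmt2, Hmga1, Hmga2, Hmgb1 and Hmgb2. They are 83 of the 8742 genes in the tables, all protein coding, and 64 of them had values in all 9 libraries while 19 had values in 6. RNA was measured in organoids, small self-organised cultures, of mouse esophageal epithelial cells harvested on day 7 after seeding. The wild-type group (WT) is unedited. In the group named PN the labels give a knockout of Trp53 plus Notch1, and in the group named PCN one of Trp53, Cdkn2a plus Notch1. Each group had 3 libraries and no treatment. GRCm38 is the genome build of all coordinates. The labels do not say how the edits were made, whether a line was 1 clone, or whether replicate libraries derive from different cultures or mice, so p-values measure the spread between these libraries only.

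Histone methyltransferases of the KMT2 and SETD1 families place methyl groups on lysine 4 of histone H3, and polycomb repressive complex 2 places them on lysine 27. Demethylases of the KDM families and histone deacetylases remove marks, while bromodomain proteins bind acetylated histones. SWI/SNF, ISWI and CHD enzymes spend ATP to move nucleosomes, and in stratified epithelia such as the esophagus these enzymes take part in keeping basal progenitors and in switching on differentiation genes.

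Recovered library totals ran from 14695420 to 20198041 reads, the lowest in WT and the highest in PCN. Trp53 RNA stood at 29.2 to 30.0 FPKM (fragments scaled for gene length and library total) in WT, but between 0.562 and 0.801 in PN and between 0.624 and 0.979 in PCN. Notch1 stood between 14.97 and 19.5 FPKM in WT, between 9.87 and 10.8 in PN, and between 4.67 and 5.40 in PCN. Cdkn2a RNA lay between 5.54 and 8.83 FPKM in WT, between 18.3 and 19.4 in PN and between 53.2 and 59.9 in PCN, so its level went against the label of the last group, which is called the organoids labelled PCN below. The site of the Cdkn2a edit is not given in the sources used here, and RNA from outside a deleted part would not show the deletion. All 6 basal and all 6 suprabasal squamous markers stood in the tables, with Krt14 at 1115 ± 158 FPKM and Krt13 at 8718 ± 355 in WT (SD, n = 3). In PN and PCN, Krt14 averaged 1118 and 1384 FPKM, and Krt13 1153 and 1533. The other basal markers went both ways. In WT, PN and PCN, Krt15 averaged 170, 414 and 930.5 FPKM, Trp63 57.9, 83.2 and 77.4, Itga6 100.7, 69.4 and 90.3, and Itgb4 188, 140 and 143. Krt5 had no WT value. Of the other suprabasal markers, Ivl averaged 11.75, 11.51 and 8.42 FPKM. Krt4 (5336, 1172 and 1034), Tgm3 (68.3, 2.26 and 2.26), Sprr3 (566.5, 36.7 and 42.8) and Krtdap (278, 158 and 165) averaged lower in both knockout groups. Of markers of other cell types, none of 6 fibroblast and none of 6 muscle and glia genes had values, while Cd68 of the 6 leukocyte genes (85.2 FPKM in WT, 20.1 in PN, 12.8 in PCN) and Esam of the 5 endothelial genes (3.22, 1.79 and 1.79 FPKM) did. A marker expressed alike in all groups would also have no values, so missing values do not show which cells were absent.

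Each table holds only genes that the authors called at an adjusted p under 0.05 in that pair of groups. Every one of the 83 genes had therefore been called by the authors in at least 1 pair, and a refit of them is no independent evidence. By the same name rule, 132 autosomal protein-coding genes of the GENCODE M21 annotation qualify, and the 83 are 62.9% of these. The share for all autosomal protein-coding genes was 37.6% (7825 of 20807). Both shares count annotated genes whether or not they are expressed in these organoids, and shares among expressed genes were not compared. The other 49 of the 132, among them Ep300, Kdm1a, Kdm6b, Hdac3, Smarcb1, Kmt2c and Cbx7, were in no table and are not analysed here.

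Promoter sequence was looked at because genes of DNA replication and mitosis moved in these organoids, and the E2F factors that drive such genes read the letters TTTNGCGC. Of the 83 genes, 67 had a RefSeq promoter window of 300 bases (250 before to 50 after the start, GRCm38.p6), 91 windows in all, searched on both strands. The letters occurred in 3 of the 91 windows (3.30%), those of Cbx5, Cbx3 and Ezh2, against 1.37% of all 31396 windows and 2.61% of the 8092 windows of genes in the tables. Cbx5 and Cbx3 encode heterochromatin proteins and Ezh2 the main methyltransferase of polycomb repressive complex 2. The stretches that hold the letters follow, 5′ to 3′, with the match in capitals. That of Cbx5 (chr15:103239853-103239972, minus strand) has its match starting 67 bases before the RefSeq start, that of Cbx3 (chr6:51470416-51470535, plus strand) 168 bases before it, and that of Ezh2 (chr6:47595012-47595033, minus strand) 3 bases after it.
Cbx5: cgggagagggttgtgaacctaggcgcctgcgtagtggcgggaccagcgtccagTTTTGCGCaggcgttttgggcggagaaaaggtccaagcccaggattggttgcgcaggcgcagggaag
Cbx3: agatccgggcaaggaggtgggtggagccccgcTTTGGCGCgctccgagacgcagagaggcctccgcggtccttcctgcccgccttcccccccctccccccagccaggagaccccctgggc
Ezh2: gctgcgTTTGGCGCtcggtccg
The letters TTTGAA, read by factors of mitotic genes, were in 6.59% of the 91 windows against 17.6% of all windows and 11.9% of windows of genes in the tables. The Notch-factor letters GTGGGAA were in 1.099% against 6.33% and 5.91%. No match overlapped another motif's match in the 3 stretches. A match of letters is a description and not a binding site.

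Chromatin genes were higher more often than lower in both kinds of knockout organoid. In PN against WT, 41 of the 83 were higher and 19 lower (edgeR adjusted p under 0.05), 49.4% and 22.9%, where 34.4% of the 8430 autosomal genes in the tables were higher and 37.2% were lower (71.7% called in either direction, and 72.3% of the chromatin genes). In the organoids labelled PCN against WT, 51 were higher and 15 lower, 61.4% and 18.1%, beside 34.4% and 37.9% of the background (72.3% in either direction, and 79.5% of the chromatin genes). In PCN against PN, 28 were higher and 7 lower, 33.7% and 8.43%, beside 20.8% and 19.4% (40.2% in either direction, and 42.2% of the chromatin genes). In a fit of all 9 libraries, 16 were higher in PCN than in PN, of the 24 called genes that had values in all 9. The 3 comparisons share libraries and are set side by side without a test between them.

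The changes were small. The median log2 fold change was 0.29 over 69 fitted chromatin genes in PN against WT, where all 6853 autosomal genes with values gave -0.08; it was 0.33 against -0.09 in PCN against WT, and 0.15 against 0.00 in PCN against PN. Among called genes the median size was 0.41, 0.45 and 0.29 on the log2 scale for chromatin genes, against 0.65, 0.69 and 0.46 for all genes. The libraries of the 2 groups did not overlap in FPKM for 61 of 71, 65 of 72 and 44 of 68 chromatin genes with values, in the order above. These are 85.9%, 90.3% and 64.7%, beside 90.2%, 91.0% and 60.4% of all autosomal genes with values. There was no value for 12 of the 83 in PN against WT, 11 in PCN against WT and 15 in PCN against PN. Chd5 passed no filter on low counts.

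Lists of cell cycle and differentiation genes moved in the same organoids. Of S-phase genes with values, 23 of 24 were higher in PN and 22 of 23 in PCN than in WT, with medians of 0.70 and 0.80 on the log2 scale. All 24 genes of the G2/M list were higher in both, with medians of 0.79 and 0.83. Of 20 squamous differentiation genes on the list, 16 were in a table. Of those with values, 14 of 15 were lower in PN and 16 of 16 in PCN, with medians of -2.18 and -2.29. Over all autosomal genes with values, 40.6% were higher and 43.8% lower in PN, and 40.6% and 44.8% in PCN. Between PCN and PN the 3 medians were 0.07, 0.02 and 0.00. In bulk RNA, fewer cells of a type and less RNA per cell cannot be told apart, and the part of cycling or differentiated cells in the chromatin gene values was not tested.

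**Figure D1:**
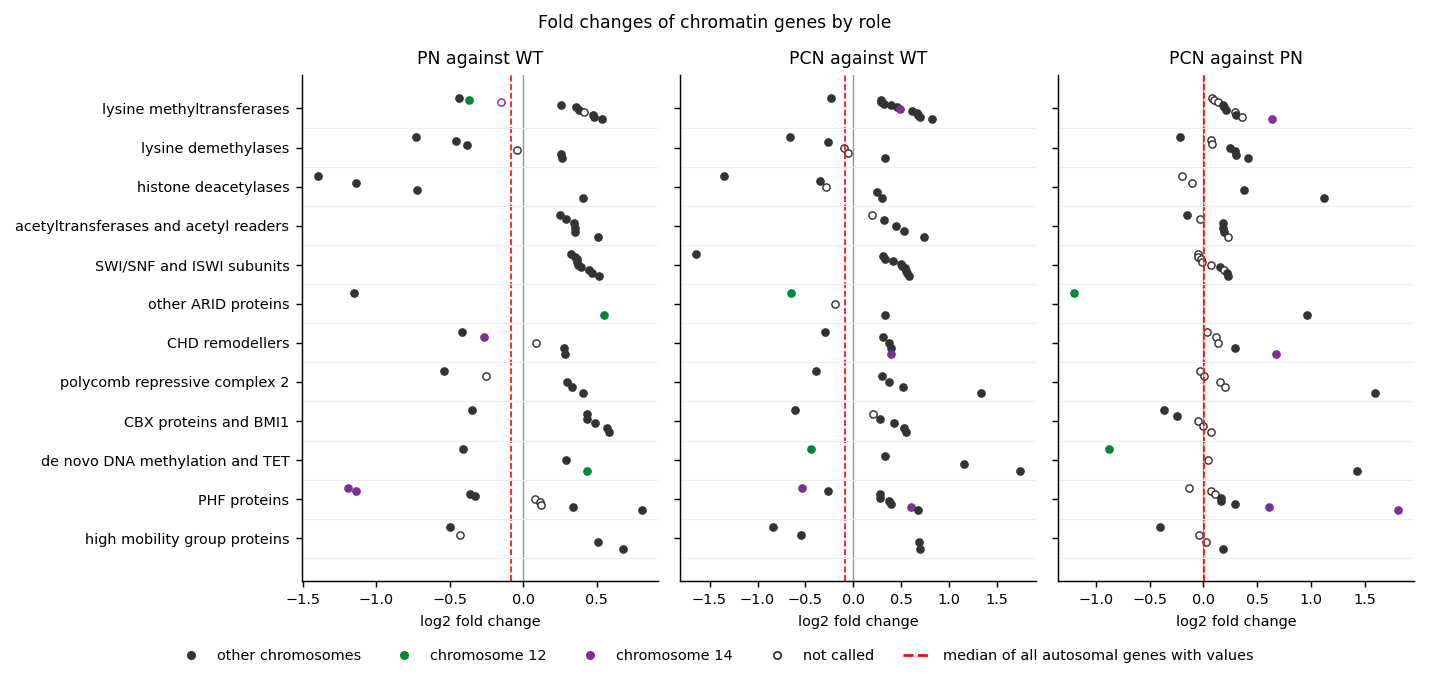
Each point is 1 chromatin gene, placed by its log2 fold change (x axis) and its role (y axis) in the 3 comparisons; filled points passed an edgeR adjusted p of 0.05, open points did not or were not in that pair's table, and the dashed line is the median of all autosomal genes with values. All 9 fitted SWI/SNF and ISWI genes lie right of 0 in PN against WT, while 3 of 4 histone deacetylases lie left of it.

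**Figure D2:**
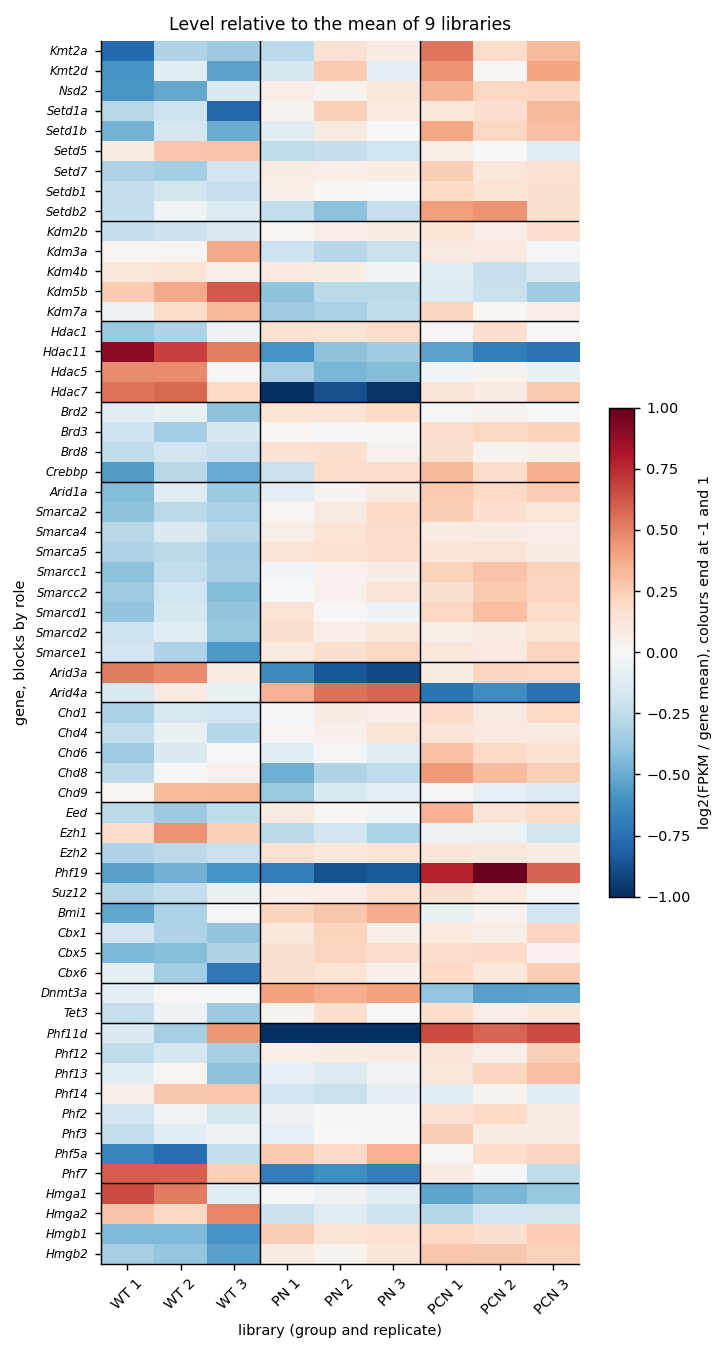
The heat map gives, for each chromatin gene with values in all 9 libraries (rows in blocks by role, Tet1 left out for its low counts, and 2 further genes not shown) and each library (columns), the log2 ratio of its FPKM to the gene's mean over the 9 libraries, with colours ending at -1 and 1. Hdac7 and Arid3a are low in the 3 PN columns, Phf19 is high in the 3 PCN columns, and Arid4a and Dnmt3a are high in PN and low in PCN.

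Lysine methyltransferases made up 14 of the 83 genes. Of 10 with values in PN against WT, 6 were higher and 2 lower. Of 12 in the organoids labelled PCN against WT, 11 were higher and 1 lower. Of 10 in PCN against PN, 5 were higher and none lower. Over all autosomal genes with values, 40.6% were higher and 43.8% lower in PN against WT. The shares were 40.6% and 44.8% in PCN against WT, and 25.15% and 23.49% in PCN against PN. Genes entered a table by being called, so high shares called among those with values were largely set beforehand, here and in the role groups below. Kmt2a, which encodes a large H3 lysine 4 methyltransferase that keeps developmental genes active, read 4.28, 5.95 and 5.69 FPKM in the 3 WT libraries, 6.11, 8.14 and 7.72 in PN and 10.6, 8.34 and 9.11 in PCN. No PN or PCN library was as low as the highest WT library. Its log2 fold change was 0.48 ± 0.14 (SE) in PN against WT (edgeR adjusted p = 0.0219) and 0.82 ± 0.13 in PCN against WT (edgeR adjusted p = 4.13e-04). The PN call was lost without PN replicate 2 (0.0664), PN replicate 3 (0.0588) or WT replicate 3 (0.218, edgeR adjusted p in each).

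Kmt2d, whose product marks enhancers, read 2.93, 4.11 and 3.04 FPKM in WT, 3.90, 5.29 and 4.15 in PN and 6.02, 4.49 and 5.82 in PCN. WT replicate 2 lay above PN replicate 1, and all PCN libraries lay above all WT libraries. Its log2 fold change of 0.41 ± 0.15 in PN against WT did not pass (edgeR adjusted p = 0.0592), but passed with the replicate number as a block (0.42, edgeR adjusted p = 8.14e-05), with TMM scaling (0.0251) and with DESeq2 (0.0135). In PCN against WT it was 0.70 ± 0.15 (edgeR adjusted p = 0.00394), and 0.63 without WT replicate 3 (edgeR adjusted p = 0.162).

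Setd1a and Setd1b encode the catalytic subunits that place most H3 lysine 4 trimethylation at promoters. Setd1b rose from 3.58 ± 0.46 FPKM in WT to 4.63 ± 0.32 in PN libraries and 5.71 ± 0.34 in PCN libraries (SD, n = 3), with log2 fold changes of 0.38, 0.68 and, between PCN and PN, 0.30. Setd1a read 4.59 ± 0.93, 6.61 ± 0.49 and 6.97 ± 0.55 FPKM and was higher by 0.54 ± 0.13 in PN and 0.61 ± 0.13 in PCN than in WT. The exons of Setd1a overlap those of another annotated gene on the same strand over 51.9% of their bases, so its level is uncertain. Nsd2, an H3 lysine 36 methyltransferase, read 6.78 ± 1.15, 9.41 ± 0.26 and 10.7 ± 0.55 FPKM and was higher in all 3 comparisons (0.48, 0.66 and 0.18).

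Other methyltransferase genes moved less. Setd7 and Setdb1 were higher in both knockout groups, by 0.36 and 0.26 on the log2 scale in PN and 0.46 and 0.39 in PCN. Setd2, the enzyme of H3 lysine 36 trimethylation, Nsd1 and Ehmt1, which methylates H3 lysine 9, had values in PCN against WT and were higher by 0.32, 0.29 and 0.29. Ehmt2, the partner of Ehmt1, had values in PCN against PN and was higher by 0.19. Setd5 was the 1 methyltransferase gene lower than WT in both groups, at 11.3 ± 0.90 FPKM in WT, 8.29 ± 0.17 in PN and 9.59 ± 0.58 in PCN (log2 fold changes of -0.44 and -0.23). Setd3, an actin histidine methyltransferase, was lower by 0.37 ± 0.08 on the log2 scale in PN and had no value in PCN against WT.

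Lysine demethylases did not lean one way against WT. Of the 8 genes, 6 had values in PN against WT, with 2 higher and 3 lower. In PCN against WT 5 had values, with 1 higher and 2 lower. In PCN against PN 7 had values, with 4 higher and 1 lower, beside 25.15% higher and 23.49% lower of all autosomal genes with values. Against WT these background shares were 40.6% and 43.8% in PN, and 40.6% and 44.8% in PCN. Kdm5b, which removes methyl groups from H3 lysine 4, read 11.01, 11.95 and 14.1 FPKM in WT, 6.94, 7.60 and 7.62 in PN and 8.33, 7.88 and 7.15 in PCN. Every WT library lay above every knockout library. Its log2 fold changes were -0.73 ± 0.09 in PN (edgeR adjusted p = 2.29e-05) and -0.66 ± 0.09 in PCN (7.24e-05), and 0.08 with a 95% interval of -0.04 to 0.19 between PCN and PN.

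Kdm7a and Kdm3a, which act on H3 lysine 9 among other sites, were lower in PN than in either other group. Kdm7a stood at 7.43 ± 0.96 FPKM in WT, 5.37 ± 0.19 in PN and 7.14 ± 0.51 in PCN (log2 fold change of -0.46 ± 0.09 in PN against WT and 0.41 ± 0.06 in PCN against PN). Kdm3a stood at 17.6 ± 2.6, 13.5 ± 0.40 and 16.5 ± 0.72 FPKM (-0.38 and 0.29). Their intervals in PCN against WT reached from -0.26 to 0.16 and from -0.30 to 0.11. Kdm4b was lower in PCN than in WT (-0.26 ± 0.07) and than in PN (-0.22 ± 0.06), at 15.6 ± 0.63 FPKM beside 18.8 ± 0.53 and 18.2 ± 0.85; the first call was lost without PCN replicate 2 (edgeR adjusted p = 0.0690). Kdm2b, an H3 lysine 36 demethylase that also recruits polycomb complexes, was higher in both knockout groups by 0.26 and 0.33.

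Of 9 histone deacetylase genes on the list, 5 were in a table, and Hdac3, Hdac4, Hdac9 and Hdac10 were in none. Hdac2 had no value in PN against WT, so the values describe these genes and not their classes. The class I genes Hdac1 and Hdac2 encode nuclear enzymes of corepressor complexes. Hdac1 was higher, at 40.9 ± 5.0 FPKM in WT, 53.7 ± 0.89 in PN and 49.98 ± 3.5 in PCN (0.40 and 0.29 on the log2 scale), and Hdac2 was higher by 0.25 in PCN than in WT. The class IIa genes Hdac5 and Hdac7, whose products shuttle between nucleus and cytoplasm, and Hdac11, the only class IV gene, were lower in PN.

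Hdac7 (chromosome 15, 97792664 to 97844502, GRCm38) was the most strongly lowered called chromatin gene in PN, at 4.91, 5.01 and 3.86 FPKM in WT, 1.67, 1.82 and 1.70 in PN and 3.67, 3.55 and 4.03 in PCN. The PN libraries lay below all others, while WT replicate 3 lay within the PCN range. Its log2 fold change was -1.40 ± 0.13 in PN against WT (edgeR adjusted p = 1.52e-06) and 1.12 ± 0.10 in PCN against PN (2.20e-10). It was not in the authors' table for PCN against WT, where the value was -0.29 with a 95% interval of -0.54 to -0.04. Hdac5 followed a like order with 7.81 ± 1.36, 4.68 ± 0.24 and 6.10 ± 0.23 FPKM, and log2 fold changes of -0.73 in PN against WT and 0.38 in PCN against PN. Its fall in PCN against WT (-0.35, edgeR adjusted p = 0.0265, libraries overlapping) was lost when WT replicate 1 (0.0988) or 2 (0.138) or PCN replicate 1 (0.0858), 2 (0.0565) or 3 (0.0940) was left out, and with TMM scaling (0.0711).

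Hdac11 stayed low in both groups, on few reads. It had 70, 59 and 54 counts in WT, 28, 32 and 37 in PN and 35, 27 and 28 in PCN, or 1.062 ± 0.14, 0.476 ± 0.040 and 0.414 ± 0.032 FPKM. The log2 fold changes were -1.14 ± 0.24 in PN (edgeR adjusted p = 0.00214) and -1.35 ± 0.25 in PCN (6.71e-04) against WT.

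Acetyltransferase and acetyl-reader genes were higher wherever they passed against WT. All 6 with values were higher in PN, and 4 of 5 were higher in PCN than in WT. Of 6 with values in PCN against PN, 3 were higher and 1 lower. Over all autosomal genes with values, 40.6% were higher in PN and 40.6% in PCN than in WT. Having a value mostly came from being called, so these high shares were largely set beforehand. Ep300 and Brd9 were in no table. Crebbp, the acetyltransferase coactivator CBP, read 3.02, 3.66 and 3.14 FPKM in WT, 3.81, 5.03 and 5.03 in PN and 5.57, 5.04 and 5.67 in PCN. All PN and PCN libraries lay above all WT libraries, with log2 fold changes of 0.51 ± 0.11 (edgeR adjusted p = 0.00305) and 0.73 ± 0.09 (2.09e-05). Brd3, a bromodomain reader of acetylated histones, rose from 12.4 ± 0.81 FPKM in WT to 14.7 ± 0.22 in PN libraries and 16.8 ± 0.34 in PCN libraries (0.25, 0.44 and, between PCN and PN, 0.19). Brd2 was highest in PN, at 42.5 ± 5.3, 54.0 ± 1.3 and 48.7 ± 1.0 FPKM, and lower by 0.15 ± 0.04 in PCN than in PN; that call was lost without PN replicate 3 (edgeR adjusted p = 0.0534) and in a fit of all 9 libraries (0.2802).

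Of 15 SWI/SNF and ISWI subunit genes on the list, 10 were in a table and 9 had values in PN against WT. Arid1b, Arid2, Smarcad1, Smarcal1 and Smarcb1 were in none, and Smarcd3 had no value in this pair. Genes entered a table by being called, so a high share called among those with values was largely set beforehand. All 9 with values in PN were higher than in WT, by 0.32 to 0.51 on the log2 scale. In PCN, 9 of 10 were higher than in WT, and 3 were higher and none lower than in PN. Smarca4, the BRG1 motor subunit, read 42.7, 46.8 and 42.6 FPKM in WT, 53.9, 56.9 and 58.7 in PN and 54.7, 54.8 and 54.1 in PCN. The WT libraries lay below all others, and PN and PCN overlapped. Its log2 fold changes were 0.37 ± 0.07 (edgeR adjusted p = 7.43e-04) and 0.31 ± 0.07 (0.00308), with a 95% interval of -0.14 to 0.04 between PCN and PN.

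Core subunits of the complex went the same way. Smarce1 rose from 10.1 ± 1.3 FPKM in WT to 14.3 ± 0.61 in PN libraries and 14.2 ± 0.61 in PCN libraries (0.51 and 0.50). Smarcc1, a scaffold subunit, rose from 19.0 ± 1.1 to 24.4 ± 0.88 and 28.3 ± 0.64 FPKM (0.37, 0.58 and, between PCN and PN, 0.22), and Arid1a, the DNA-binding subunit of the BAF form, from 13.8 ± 1.6 to 17.2 ± 1.1 and 20.1 ± 0.46 FPKM (0.32, 0.55 and 0.23). Smarca5, the ISWI motor, stood at 24.5 ± 0.64, 33.7 ± 0.62 and 32.6 ± 0.58 FPKM (0.47 and 0.42). The exception was Smarcd3, a variant subunit known from muscle, with 28, 33 and 12 counts in WT and 7, 14 and 8 in PCN. It passed as lower in PCN (-1.64 ± 0.48, edgeR adjusted p = 0.0136) although the libraries overlapped, it met the filter on low counts through the WT libraries, and 48.2% of its exon bases are shared with Chpf2 on the opposite strand.

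CHD remodeller genes were mixed. In PN, 2 of 6 were higher and 2 lower. In PCN, 4 of 5 with values were higher and 1 lower than in WT, and 2 of 5 were higher and none lower than in PN. Chd4, the motor of the NuRD corepressor and the most abundant CHD gene in the tables, rose from 52.0 ± 4.2 FPKM in WT to 62.7 ± 2.6 in PN libraries and 64.2 ± 0.95 in PCN libraries (0.28 and 0.31); the PN call was lost without PN replicate 3 (edgeR adjusted p = 0.0543). Chd1 rose by 0.28 and 0.39 and Chd6 by 0.37 in PCN. Chd9 was lower in both, at 5.85 ± 0.66, 4.34 ± 0.43 and 4.76 ± 0.23 FPKM (-0.42 and -0.29). Chd5 had no counts in WT and 1, 7 and 7 in PN, too few for the fit, and no value in PCN.

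**Figure D3:**
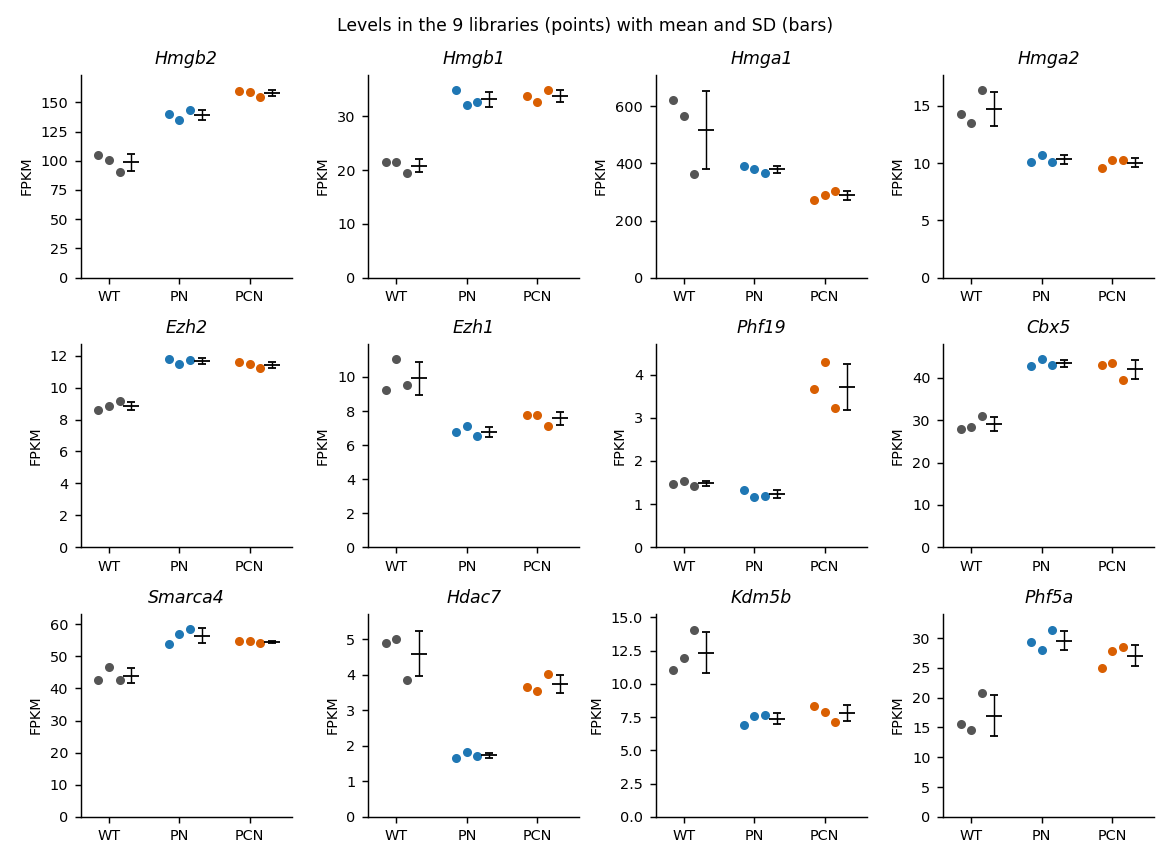
FPKM (y axis, from 0) of 12 chromatin genes in the 3 WT, 3 PN and 3 PCN libraries (points), with the group mean and SD beside them. Hmgb1, Hmgb2, Ezh2, Cbx5, Smarca4 and Phf5a have all 6 knockout libraries above the 3 WT libraries, Ezh1, Hmga2 and Kdm5b have them below, and Phf19 is high in the 3 PCN libraries alone.

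The core genes of polycomb repressive complex 2 rose against WT, and Ezh1, its alternative methyltransferase, fell. Of 5 genes, 3 were higher and 1 lower in PN, 4 higher and 1 lower in PCN than in WT, and 1 higher and none lower in PCN than in PN. Ezh2, whose start region is printed above, read 8.58, 8.82 and 9.14 FPKM in WT, 11.8, 11.5 and 11.7 in PN and 11.6, 11.5 and 11.2 in PCN. The WT libraries lay below the rest, and PN and PCN overlapped. Its log2 fold changes were 0.41 ± 0.07 (edgeR adjusted p = 4.38e-04) and 0.38 ± 0.07 (9.97e-04), with a 95% interval of -0.14 to 0.08 between PCN and PN. Suz12 and Eed, the core subunits that the enzyme needs, rose from 23.9 ± 1.9 to 29.2 ± 1.1 and 29.3 ± 1.5 FPKM and from 9.46 ± 0.39 to 11.8 ± 0.44 and 13.5 ± 1.1 FPKM (0.30 and 0.30, 0.33 and 0.52). The Suz12 call in PCN was lost without PCN replicate 1 (edgeR adjusted p = 0.0586).

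Ezh1 went the other way, at 9.21, 11.03 and 9.56 FPKM in WT, 6.75, 7.11 and 6.52 in PN and 7.78, 7.79 and 7.14 in PCN. Its log2 fold changes were -0.54 ± 0.09 (edgeR adjusted p = 2.33e-04) and -0.39 ± 0.09 (0.00280). The ratio of Ezh2 to Ezh1 per kilobase was 0.896 ± 0.084 in WT, 1.72 ± 0.096 in PN and 1.51 ± 0.052 in PCN (SD, n = 3), and the libraries of no 2 groups overlapped. The ratio of Smarca4 to Smarca2, the alternative SWI/SNF motors, was 10.1 ± 0.33, 9.51 ± 0.22 and 8.76 ± 0.38, and that of Hmgb2 to Hmgb1 was 4.72 ± 0.11, 4.20 ± 0.18 and 4.67 ± 0.22. Over the 9 comparisons of these 3 ratios, exact two-sided permutation tests gave p = 0.10 in 7 of them, which is the smallest that 3 against 3 libraries allow, and 0.129 after Benjamini-Hochberg adjustment, so none could pass.

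**Figure D4:**
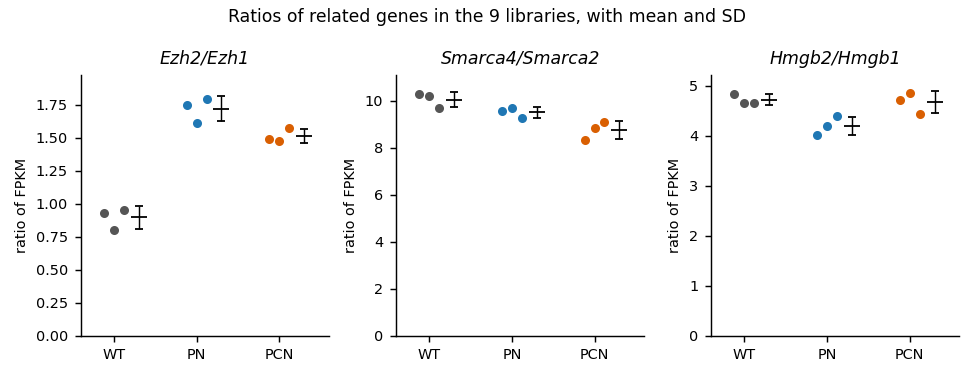
Ratio of FPKM (y axis, from 0) of Ezh2 to Ezh1, Smarca4 to Smarca2 and Hmgb2 to Hmgb1 in the 3 WT, 3 PN and 3 PCN libraries (points), with group mean and SD. The Ezh2 to Ezh1 ratio is below 1 in the 3 WT libraries and above it in the 6 others.

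Phf19 encodes a polycomb-like protein that brings polycomb repressive complex 2 to chromatin, and lies on chromosome 2 (34893757 to 34914026, GRCm38). It read 1.47, 1.54 and 1.42 FPKM in WT, 1.33, 1.17 and 1.20 in PN and 3.65, 4.28 and 3.22 in PCN, on 100 to 114 counts in the first 6 libraries and 302 to 376 in PCN. All PCN libraries lay far above the rest. Its log2 fold change was 1.59 ± 0.13 in PCN against PN (edgeR adjusted p = 2.96e-11) and 1.33 ± 0.14 against WT (5.22e-06), and -0.25 with a 95% interval of -0.59 to 0.09 in PN against WT. It was the largest rise in PCN against PN among called chromatin genes outside chromosomes 12 and 14.

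Chromobox genes and Bmi1 code for readers of methylated histones and for a core subunit of polycomb repressive complex 1. In PN, 5 of 6 were higher and 1 lower. In PCN, 4 of 6 with values were higher and 1 lower than in WT. Of 5 with values in PCN against PN, none was higher and 2 were lower. Cbx5, the heterochromatin protein HP1 alpha, read 27.9, 28.5 and 31.1 FPKM in WT, 42.7, 44.4 and 43.1 in PN and 43.2, 43.5 and 39.4 in PCN. Its log2 fold changes were 0.58 ± 0.07 (edgeR adjusted p = 1.37e-05) and 0.53 ± 0.08 (6.98e-05), and PN and PCN overlapped. The other HP1 genes rose less: Cbx1 by 0.44 and 0.43, and Cbx3, with values in WT and PCN, by 0.28 from 16.2 ± 2.0 to 19.6 ± 1.0 FPKM. Counting with no statement on copies leaves Cbx3 uncertain, since several processed copies of it are annotated.

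Polycomb chromobox genes and Bmi1 differed in their order over the groups. Cbx6 rose from 16.7 ± 3.5 to 23.3 ± 0.94 and 24.4 ± 1.2 FPKM (0.49 and 0.55), and Cbx8 by 0.44 in PN. Bmi1, which epithelial progenitors need for self-renewal, read 12.05, 13.9 and 17.0 FPKM in WT, 20.2, 20.9 and 22.3 in PN and 16.4, 17.7 and 15.1 in PCN. It was higher in PN than in WT (0.57 ± 0.11, edgeR adjusted p = 9.24e-04) and lower in PCN than in PN (-0.37 ± 0.06, 2.76e-05), with an interval of -0.05 to 0.45 in PCN against WT.

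De novo DNA methylation genes did not move together. Dnmt3a, a de novo DNA methyltransferase (chromosome 12, 3806007 to 3914443, GRCm38), read 2.61, 2.77 and 2.74 FPKM in WT, 3.66, 3.57 and 3.67 in PN and 2.13, 1.90 and 1.91 in PCN. The 3 groups did not overlap: it was higher in PN than in WT (0.44 ± 0.07, edgeR adjusted p = 3.80e-04) and lower in PCN than in WT (-0.45 ± 0.09, 0.00101). Dnmt3b, the other de novo enzyme, had 18, 18 and 12 counts in WT and 63, 38 and 34 in PCN (1.15 ± 0.34, edgeR adjusted p = 0.0143, and 0.108 without PCN replicate 1).

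TET enzymes oxidise methylated cytosine. Tet3, the most abundant of the 3, rose from 8.11 ± 0.89 FPKM in WT to 9.84 ± 0.60 in PN libraries and 10.2 ± 0.40 in PCN libraries (0.29 and 0.33), the first without PN replicate 2 at an edgeR adjusted p of 0.0980. Tet2 was lower in PN, at 2.598 ± 0.17 and 1.94 ± 0.32 FPKM (-0.41 ± 0.11, edgeR adjusted p = 0.0113); the call was lost without PN replicate 1 (0.0661), PN replicate 3 (0.0534) or WT replicate 2 (0.0598). Tet1 was near the floor, with 7, 8 and 4 counts in WT, 4, 10 and 14 in PN and 34, 15 and 32 in PCN. It met the filter on low counts only through the PCN libraries where it is high, so its higher calls in PCN, which are among the counts above, support nothing here.

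PHF proteins carry a zinc finger that reads histone tails. Of the 9 grouped here, 2 were higher and 4 lower in PN than in WT. Of 8 with values in PCN against WT, 6 were higher and 2 lower. Of 8 in PCN against PN, 5 were higher and none lower. Phf5a, a subunit of the U2 splicing factor SF3B, read 15.6, 14.6 and 20.9 FPKM in WT, 29.4, 28.1 and 31.3 in PN and 25.0, 27.8 and 28.5 in PCN. All knockout libraries lay above WT, and the log2 fold changes were 0.81 ± 0.12 (edgeR adjusted p = 1.19e-04) and 0.67 ± 0.12 (6.67e-04). Phf12, a subunit of SIN3 complexes, rose by 0.34 and 0.40, and Phf14 fell by 0.36 and by 0.26 on the log2 scale. Phf13, Phf2 and Phf3 passed against WT in PCN (0.37, 0.27 and 0.28) and had PN values of 0.08, 0.11 and 0.12 with intervals that held 0.

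High mobility group genes split by family. The HMGB proteins bend DNA and are abundant in dividing cells, and the HMGA proteins open AT-rich DNA. Hmgb2 read 105, 101 and 90.4 FPKM in WT, 140.1, 135 and 143 in PN and 159.5, 159 and 155 in PCN, with no overlap between any 2 groups. Its log2 fold changes were 0.51 ± 0.07 (edgeR adjusted p = 8.90e-05), 0.68 ± 0.08 (7.33e-06) and, between PCN and PN, 0.18 ± 0.04 (0.00159, and 0.0698 in a fit of all 9 libraries). Hmgb1 rose from 20.9 ± 1.2 FPKM to 33.2 ± 1.4 in PN and 33.8 ± 1.1 in PCN (0.68 ± 0.07 and 0.70 ± 0.07), with an interval of -0.07 to 0.12 between them; many processed copies of Hmgb1 are annotated, so its level is uncertain.

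Hmga1 was the most abundant chromatin gene in the tables, at 622, 565 and 363 FPKM in WT, 392, 382 and 367 in PN and 274, 288 and 304 in PCN. WT replicate 3 lay below all PN libraries, while all PCN libraries lay below all others. Its log2 fold change of -0.43 ± 0.17 in PN against WT did not pass (edgeR adjusted p = 0.0781), passed with DESeq2 (0.0113), and was -0.63 without WT replicate 3 (1.69e-09). In PCN it was -0.84 ± 0.18 against WT (edgeR adjusted p = 0.00557) and -0.40 ± 0.04 against PN (2.49e-08, and 0.160 in a fit of all 9 libraries). A near-identical copy, Hmga1b, is annotated, so the level is that of reads the authors gave to Hmga1. Hmga2, the fetal HMGA gene, was lower in both, at 14.7 ± 1.5 FPKM in WT, 10.3 ± 0.37 in PN and 10.05 ± 0.40 in PCN (-0.50 ± 0.08 and -0.55 ± 0.09).

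On chromosomes 12 and 14 there are 7 of the chromatin genes, and there genes of all kinds moved together. Over 298 genes of chromosome 12 before 95 Mb, the median log2 fold change was -0.998 in PCN against WT, with 3 genes higher and 273 lower, and -0.90 in PCN against PN; in PN against WT it was -0.10. On chromosome 14 the median was -0.56 in PN against WT (17 higher, 259 lower), -0.01 in PCN against WT and 0.60 in PCN against PN (322 higher, 5 lower). Over the other autosomes the medians were 0.04, 0.00 and 0.00. The part of this regional pattern in the values of the 7 genes was not tested.

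Dnmt3a and Arid4a lie on chromosome 12 before 95 Mb. Arid4a, a subunit of SIN3 corepressor complexes (71015990 to 71098592), read 4.95, 5.80 and 5.24 FPKM in WT, 6.98, 8.07 and 8.23 in PN and 3.31, 3.58 and 3.27 in PCN. Like Dnmt3a it was higher in PN than in WT (0.55 ± 0.10, edgeR adjusted p = 5.45e-04) and lower in PCN than in WT (-0.65 ± 0.11, 2.30e-04) and PN (-1.20 ± 0.08, 1.17e-12). The Dnmt3a value between PCN and PN was -0.87 ± 0.07, beside the regional median of -0.90. Setd3 lies at 108106431 to 108179314 on the same chromosome, where the 67 genes from 95 Mb on had a median of 0.29 in PN against WT.

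Chd8, Phf7, Phf11d and Setdb2 lie on chromosome 14, and all 4 were higher in PCN than in PN. Chd8, a remodeller that binds beta-catenin (52198151 to 52257780), stood at 6.61 ± 0.74 FPKM in WT, 5.44 ± 0.47 in PN and 8.68 ± 0.58 in PCN (-0.27, 0.40 and 0.67 in the 3 comparisons). Its fall in PN (edgeR adjusted p = 0.0364, libraries overlapping) was lost without PN replicate 1 (0.206) or 2 (0.0782) or WT replicate 2 (0.167) or 3 (0.0616), and with TMM scaling (0.146). Setdb2, an H3 lysine 9 methyltransferase gene (59402009 to 59440884), stood at 2.43 ± 0.17, 2.17 ± 0.14 and 3.40 ± 0.36 FPKM (0.64 ± 0.12 in PCN against PN); its call in PCN against WT was lost without PCN replicate 1 (edgeR adjusted p = 0.0588) or 2 (0.0596).

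Against WT in PN, Phf11d and Phf7 had the largest falls of the 4 genes. Phf11d (59347407 to 59365470) had 67, 58 and 101 counts in WT, 39, 33 and 43 in PN and 157, 129 and 145 in PCN. The 3 groups did not overlap, with log2 fold changes of -1.20 ± 0.26 in PN against WT (edgeR adjusted p = 0.00223) and 1.81 ± 0.18 in PCN against PN (3.54e-09). Its call in PCN against WT (0.61, edgeR adjusted p = 0.0313) was lost without WT replicate 1 (0.0965) or 2 (0.1496) or any 1 PCN replicate (0.0681 to 0.0904), and its neighbours of the Phf11 family may share reads with it. Phf7 (31237689 to 31251317) stood at 3.57 ± 0.50, 1.61 ± 0.045 and 2.45 ± 0.29 FPKM (-1.14, -0.54 and 0.61). Without the genes of chromosomes 12 and 14, 76 chromatin genes remained, of which 62, 66 and 62 were fitted in the 3 comparisons. Of these, 39 were higher and 15 lower in PN, 48 and 12 in PCN against WT, and 24 and 5 in PCN against PN. Over all fitted genes of the same autosomes, 2794 were higher and 2758 lower of 6157 in PN. The counts were 2749 and 2800 of 6150 in PCN against WT, and 1407 and 1356 of 5911 in PCN against PN.

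**Figure D5:**
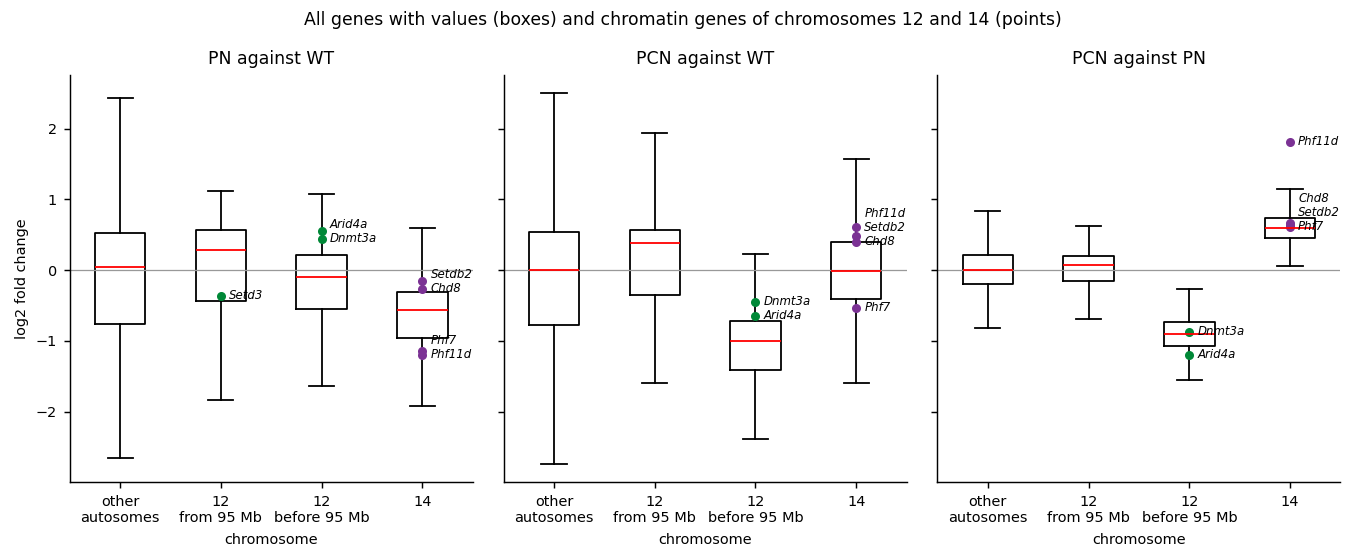
Boxes give the quartiles and median (red) of the log2 fold change (y axis) of all genes with values on the other autosomes, on chromosome 12 from and before 95 Mb and on chromosome 14, with whiskers to the furthest gene within 1.5 interquartile ranges; points are the 7 chromatin genes there. In PCN against PN, Dnmt3a lies near the chromosome 12 median of -0.90, Arid4a below it, and Chd8, Setdb2 and Phf7 near the chromosome 14 median of 0.60, with Phf11d above.

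Arid3a, on chromosome 10, had the pattern of Hdac7. This transcription factor gene of the ARID family read 1.45, 1.41 and 1.07 FPKM in WT, 0.651, 0.561 and 0.542 in PN and 1.08, 1.18 and 1.17 in PCN, on 53 to 121 counts. The PN libraries lay below all others (log2 fold change of -1.15 ± 0.20 against WT, edgeR adjusted p = 4.39e-04, and 0.96 ± 0.18 in PCN against PN, 7.94e-05). The value in PCN against WT was -0.20 with an interval of -0.58 to 0.18.

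WT libraries varied most. The median coefficient of variation over chromatin genes was 8.92% in WT, 4.38% in PN and 4.95% in PCN, beside 9.45%, 4.92% and 5.55% for all genes with 50 counts. WT replicate 1 was the lowest of its group for 32 of 64 genes and replicate 2 the highest for 31. Across these 64 genes, the deviation of WT replicate 1 from its group mean had a Pearson correlation of -0.43 with the log2 gene length, and PN replicates 1 and 2 and PCN replicate 1 had -0.36, 0.48 and 0.57; these are descriptions over genes of 1 library. For the 8 longest genes, among them Kmt2a, Kmt2d, Nsd2 and Chd9, WT replicate 1 had a median of -0.19 on the log2 scale below its group mean. The part of length in their fold changes was not tested.

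Other chromatin genes, from 8 lists of complexes, are counted here over the genes with values in each pair. Over all autosomal genes with values, 40.6% were higher and 43.8% lower in PN against WT, and 40.6% and 44.8% in PCN against WT. Of the genes of maintenance DNA methylation and chromatin assembly, 11 of 12 were higher and 1 lower in PN, and 13 of 13 higher in PCN, with medians of 0.64 and 0.68. A list of COMPASS subunits, the partners of the KMT2 and SETD1 enzymes, which also holds Psip1 and the H3 lysine 79 methyltransferase gene Dot1l, had 8 of 9 higher and 1 lower in PN and 7 of 7 higher in PCN. Of genes of acetyltransferase complexes, 9 of 11 were higher and 2 lower in PN, and 13 of 16 higher and 3 lower in PCN. Partners of SWI/SNF, INO80 and SRCAP had 9 of 11 higher and 1 lower in PN, and 10 of 11 and 1 in PCN. Corepressor genes had 6 of 9 higher and 2 lower in PN, and 7 of 9 and 2 in PCN. Further polycomb genes had 4 of 12 higher, 2 lower and 6 not listed in PN, and 10 of 14 higher and 3 lower in PCN. Heterochromatin genes had 6 of 8 higher and 1 lower in PN and 8 of 8 higher in PCN. Of the arginine methyltransferase genes Prmt1, Prmt2, Prmt3, Prmt5 and Prmt6, 3 of 5 were higher and 1 lower in PN, and 3 of 4 higher and 1 lower in PCN. Between PCN and PN, these lists had 4 to 13 genes with values, of which 1 to 5 were higher and 0 to 4 lower. Over all autosomal genes with values, 25.15% were higher and 23.49% lower in that comparison.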

How the data were processed

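RNA of 9 organoid libraries, 3 per group, was analysed from 3 tables, 1 per pair of groups. The deposited tables give, per the file headers, a read count per gene and library, an FPKM value, a normalized signal, and the authors' log2 fold change, p-value and adjusted p. Per the submitters' processing notes, CASAVA and DESeq were used with GRCm38/mm10; for versions, aligner, counter and strand handling, the sources used here give nothing. Each deposited table lists only genes called at an adjusted p under 0.05, so library totals were recovered from FPKM, size factors from the normalized values, and the number of genes adjusted over (17165, 17300 and 14758) from the adjusted p-values.

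Counts were tested per pair with edgeR 4.0.16 (R 4.3.3; filterByExpr, quasi-likelihood F test, recovered totals and size factors as offsets), with Benjamini-Hochberg adjustment over those numbers. A value marked as outside a pair's table came from a fit with 95% interval and was never counted as called. The SE is the log2 fold change divided by the square root of F. DESeq2 1.42.0, TMM, no filter, a 9-library fit, a replicate block and leaving out libraries were alternatives. The fits were checked on simulated data in which most genes were unchanged. The deposited tables hold called genes only, so that check does not cover the setting in which the fits were used. The members and lists were chosen with earlier results of these data known. Named genes were the 8 largest rises and falls per comparison among called genes above 3 CPM whose libraries did not overlap between the 2 groups. For these, the lack of overlap in that comparison was set by the choice and is no separate result. Also named were the 5 most abundant, the polycomb repressive complex 2, DNA methylation and high mobility group genes and those on chromosomes 12 and 14. Others were named as examples of their group. Of the members, 2 are withheld here and enter the counts alone. Members outside the naming rule that were not taken as examples, such as Brd8 and Smarcc2, also have no values of their own in the text.

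Deviations from the group mean of same-numbered PN and WT libraries had correlations of 0.225, 0.128 and 0.231 over 5877 genes. Differently numbered PN and WT libraries had correlations of -0.219 to 0.009. Values of like size also stood between differently numbered libraries of PCN and WT, 0.295 for PCN 3 with WT 1 and 0.179 for PCN 2 with WT 3. The labels state no pairing, and whether the number marks a shared batch was not tested.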

Additional observations from a re-analysis of the deposited data

How the results depend on the processing

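Leaving out each library in turn gave 35 to 40 chromatin genes higher and 17 to 19 lower in PN against WT, 41 to 50 and 10 to 15 in PCN against WT, and 23 to 28 and 5 to 7 in PCN against PN. With the replicate block the counts were 42 and 19, 49 and 13, and 25 and 7; of the named genes, Kmt2d in PN against WT alone changed its call. Replicate numbers did not pair the PCN libraries with WT or PN (correlations between -0.310 and -0.109). DESeq2 gave 43 and 20, 51 and 15, and 28 and 7, and TMM 42 and 18, 51 and 11, and 26 and 7. A fit of all 9 libraries gave 16 higher in PCN against PN in place of 28; 24 of the 28 had values in all 9, and the cause of the lost calls among them was not tested. No named gene reversed its direction under these alternatives. The tables hold called genes only, and levels of genes with few counts, Tet1, Smarcd3, Dnmt3b and Chd5, are limited by depth.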

Other observations

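Among chromatin genes outside the name rule, the following were picked after their values were seen. Dnmt1, the maintenance DNA methyltransferase, averaged 32.2 FPKM for WT, 50.8 for PN and 59.5 for PCN, with log2 fold changes of 0.67 ± 0.06 in PN and 0.89 ± 0.07 in PCN against WT (edgeR adjusted p = 2.72e-06 and 2.22e-07). Uhrf1, which guides Dnmt1 to replicated DNA, was higher by 0.70 ± 0.07 and 0.71 ± 0.08. The histone chaperone genes Chaf1b and Asf1b, which place new nucleosomes at replication forks, were higher by 1.00 ± 0.09 and 0.94 ± 0.08 in PN and by 1.08 ± 0.10 and 0.93 ± 0.08 in PCN. L3mbtl2, of a variant polycomb complex, stood at 2.99 FPKM in WT, 6.61 in PN and 6.05 in PCN (1.16 ± 0.10 and 1.02 ± 0.10). Kat2b, the acetyltransferase PCAF, fell from 7.15 FPKM to 4.59 and 5.13 (-0.63 ± 0.11 and -0.48 ± 0.11).

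On chromosome 14, Kat6b, Pbrm1 and Supt16 were lower in PN than in WT (-1.14, -0.45 and -0.24 on the log2 scale) and higher in PCN than in PN (0.64, 0.74 and 0.68). On chromosome 12 before 95 Mb, Baz1a and Asxl2 were lower in PCN than in WT (-0.68 and -0.75) and than in PN (-1.03 and -0.82). Jarid2, a polycomb repressive complex 2 partner on chromosome 13, was lower in PN than in WT (-0.32 ± 0.07) and higher in PCN than in PN (0.54 ± 0.06).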
